A study of Homo sapiens with 9 samples.

Results

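The SLC25A genes are the largest family of mitochondrial transporters, and they were followed here in HepG2 cells deprived of glutamine (Gln). Members were taken by symbol, as every gene of the deposited expression table named SLC25A plus a number, which gave 46 genes of the 22587 listed. HepG2 is an established liver tumour cell line, and RNA-seq was run on 9 libraries in 3 groups of 3: cells with Gln added, cells after 12 h of Gln deprivation and cells after 24 h of Gln deprivation. All groups grew in high-glucose DMEM with serum, and the deprived dishes were changed to Gln-free medium 24 h after seeding. One group with Gln added served as control for both times, and its hours after a medium change are not given. The labels list GlutaMAX, a stable Gln dipeptide, as the supplement of the cells with Gln added, whereas the treatment text places it in the deprivation medium, so what each medium held is taken here from the group names alone. No label says that the 3 libraries of a group came from separate cultures, and p-values then measure only the spread between these libraries, which may be technical.

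Carriers of this family are built from repeated pairs of membrane-spanning helices. Most, though not all, sit in the inner mitochondrial membrane and exchange one metabolite for another. They move ADP for ATP, bring in phosphate, pass citrate, malate, oxoglutarate, aspartate and glutamate between the mitochondrial matrix and the cytosol, and supply the matrix with nucleotides, coenzymes and iron. In hepatocytes they serve the urea cycle, gluconeogenesis, fatty acid synthesis and the malate-aspartate shuttle. Gln reaches the matrix as a source of glutamate and oxoglutarate, the substrates of several of these carriers.

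Values are FPKM, fragments scaled to gene length and library size. On this per-length scale a comparison of levels between genes depends on the gene lengths used. The whole fragments behind them could be worked back from the FPKM of every gene, and the libraries held 29621270 to 36261546 fragments. All 10 hepatocyte markers listed were present, the lowest at 11.7 FPKM, and 7 of the 10 markers of other liver cells found in the table stayed under 0.5 FPKM in every library. CD68 and ACTA2 were the exceptions above 20 FPKM; they ran at 35.9 to 36.3 and 35.0 to 36.5 FPKM with Gln added and at 21.2 to 31.6 and 21.5 to 26.1 FPKM in the deprived libraries, and their part in the results was not tested. COL1A1, COL3A1, KRT7 and CFTR were at or near 0. The summed level of this marker list was 72.7 to 74.5 FPKM in the controls and 53.0 to 59.0 FPKM at 12 h, and at 24 h it was at most 49.0 FPKM. CD68 and ACTA2 made up most of this sum. The summed hepatocyte markers were also lower under deprivation, at 6401 to 6734 FPKM against 7563 to 7663 FPKM with Gln added. In a principal component analysis the third component set apart the third library of the 12 h group, at -13.7, and the first library of the 24 h group, at 16.6, so counts are also given without both.

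Most SLC25A genes changed under Gln deprivation, about as many up as down. Of the 46 members, 39 had a mean of at least 0.5 FPKM and were tested by limma on log2(FPKM + 0.1), with Benjamini-Hochberg adjustment over all 11880 genes tested and a call at an adjusted p under 0.05. At 12 h 13 members were higher, 15 were lower and 11 had no call, that is 28 called where 60.2% of all genes tested were called (29.1% higher and 31% lower). At 24 h 14 were higher, 16 were lower and 9 had no call, that is 30 called beside 64.7% of all genes (33% higher and 31.7% lower). The members' shares, 71.8% and 76.9%, were close to these backgrounds. FPKM are shares of a library, so fewer cells and less RNA per cell cannot be told apart in them. Both contrasts share the same control libraries. Of the 39 members, 13 were called higher at both times, 14 lower at both times, 1 at 12 h only, 3 at 24 h only and 8 at neither, and 0 were called in opposite directions. The same pattern was not counted over all genes, so it is not read as a trait of the carriers.

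Most of these changes were small. The median log2 fold change of the tested members was -0.09 at 12 h and -0.01 at 24 h, against -0.02 and 0.01 for all genes, and its median size was 0.28 and 0.34 against 0.25 and 0.28. Called changes of more than 0.5 on the log2 scale numbered 7 at 12 h, where 20.4% of all genes had one, and 11 at 24 h, where 24.9% did. Called changes of more than 1 numbered 1 at 12 h and 3 at 24 h, beside 3.95% and 6.04% of all genes. Groups did not overlap for 31 members at 12 h and for 31 at 24 h, with 67.2% and 69.9% as the shares over all genes. Without the pair of libraries that stood apart, 11 members were higher and 16 lower at 12 h, and 13 were higher and 16 lower at 24 h.

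**Figure D1:**
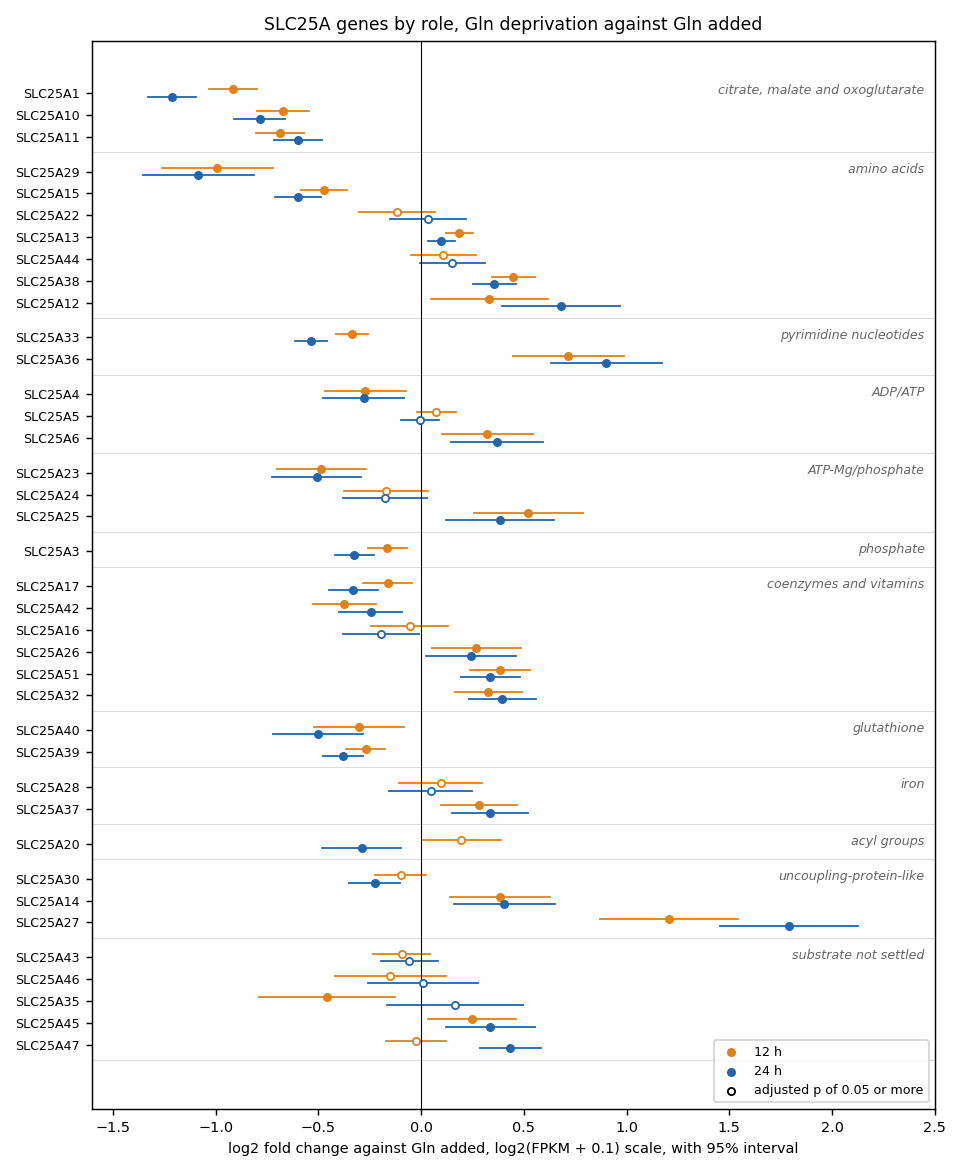
Log2 fold changes of 38 of the 39 tested SLC25A genes at 12 h (orange) and 24 h (blue) of Gln deprivation against Gln added, on the log2(FPKM + 0.1) scale, grouped by role; bars are 95% intervals and open circles have an adjusted p of 0.05 or more. The citrate, malate and oxoglutarate carriers all lie left of 0, while the amino acid carriers and the pyrimidine nucleotide carriers lie on both sides.

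The tested carriers of citrate, malate and oxoglutarate fell together. All 3 tested members of this role, SLC25A1, SLC25A10 and SLC25A11, were lower at both times, where 31% and 31.7% of all genes were. Each call was kept under all 20 alternative settings. SLC25A1, the citrate carrier that gives the cytosol citrate for fatty acid and sterol synthesis, read 118, 114 and 112 FPKM with Gln added. It read 65.4, 61.6 and 55.7 FPKM at 12 h and 49.8, 49.2 and 49.4 FPKM at 24 h. The 3 groups did not overlap, and the 24 h libraries lay closest together. The log2 fold change was -0.91 at 12 h (95% interval -1.03 to -0.80, limma adjusted p = 1.66e-07) and -1.21 at 24 h (-1.33 to -1.10, adjusted p = 1.32e-08), the largest fall among the SLC25A genes at 24 h.

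SLC25A10, the dicarboxylate carrier, exchanges malate or succinate for phosphate. It read 74.7, 78.0 and 75.6 FPKM with Gln added, 49.8, 49.8 and 43.8 FPKM at 12 h and 46.9, 42.6 and 43.0 FPKM at 24 h. Every deprived library lay below every control library, with log2 fold changes of -0.67 and -0.79. In the annotation, 46.6% of its exonic bases are shared with a gene on the same strand, so fragments could be split there by the counting. SLC25A11, the oxoglutarate/malate carrier of the malate-aspartate shuttle, read 27.0, 27.0 and 26.4 FPKM with Gln added, 17.5, 15.5 and 16.8 FPKM at 12 h and 18.6, 16.7 and 17.7 FPKM at 24 h. It fell by 0.69 and 0.60 on the log2 scale, and its 12 h and 24 h libraries overlapped. SLC25A21, the oxodicarboxylate carrier, was under 0.2 FPKM in every library and was not tested. Its means did not fall, at 0.0929 FPKM with Gln added, 0.132 FPKM at 12 h and 0.157 FPKM at 24 h.

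The amino acid carriers split. Of the 7 tested, 3 were higher at both times (SLC25A12, SLC25A13 and SLC25A38), 2 were lower at both times (SLC25A15 and SLC25A29), and the glutamate carrier SLC25A22 and the branched-chain carrier SLC25A44 had no call. That is 71.4% called at each time, beside 60.2% of all genes at 12 h and 64.7% at 24 h. All genes also divided about evenly between higher and lower. SLC25A29, a carrier of basic amino acids, read 2.29, 2.32 and 2.09 FPKM with Gln added, 1.08, 0.961 and 1.18 FPKM at 12 h and 1.19, 0.916 and 0.915 FPKM at 24 h. Its log2 fold change was -0.99 at 12 h (95% interval -1.26 to -0.72, adjusted p = 4.63e-05 by limma) and -1.08 at 24 h (-1.35 to -0.82), and 146 to 392 fragments lay behind these levels. With a pseudocount of 1 the values of SLC25A29 were -0.64 and -0.69; it had the largest 12 h fall among the SLC25A genes with a pseudocount of 0.1, but not with 1, where SLC25A1 was at -0.90. SLC25A15, the ornithine carrier of the urea cycle, read 16.3, 15.5 and 15.4 FPKM with Gln added, 11.9, 10.7 and 11.3 FPKM at 12 h and 10.6, 9.98 and 10.5 FPKM at 24 h. It fell by 0.47 and 0.60 on the log2 scale, and no deprived library reached the controls. The annotation names 5 pseudogenes of SLC25A15, which may share fragments with it.

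Among the amino acid carriers that rose, SLC25A38 brings in glycine, a substrate of haem synthesis. It read 9.62, 9.26 and 9.92 FPKM with Gln added, 12.6, 13.5 and 13.4 FPKM at 12 h and 12.8, 12.2 and 11.9 FPKM at 24 h, log2 fold changes of 0.45 and 0.36. The deprived libraries all lay above the controls.

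The 2 aspartate/glutamate carriers, which complete the malate-aspartate shuttle with SLC25A11, both rose from very different levels. SLC25A13 (citrin), the form of the liver, read 53.4, 52.4 and 53.0 FPKM with Gln added, 60.8, 59.9 and 60.1 FPKM at 12 h and 56.8, 55.9 and 57.2 FPKM at 24 h. Its change was small, 0.19 and 0.10 on the log2 scale, with no overlap between the groups. SLC25A12 (aralar), the form of brain and muscle, read 0.853, 0.999 and 0.752 FPKM with Gln added, 1.00, 1.11 and 1.24 FPKM at 12 h and 1.59, 1.35 and 1.40 FPKM at 24 h. At 24 h its log2 fold change was 0.68 (95% interval 0.39 to 0.97, limma adjusted p = 0.000842). At 12 h it was 0.33 with an adjusted p of 0.0454, a call lost under 11 of the 20 alternatives, with values of 0.24 to 0.34 where leaving out 1 library ended it (replicates 1 or 3 with Gln added, 2 or 3 at 12 h, 2 or 3 at 24 h).

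SLC25A22, which carries glutamate with a proton, read 5.78, 5.58 and 5.26 FPKM with Gln added, 5.07, 5.79 and 4.51 FPKM at 12 h and 5.85, 5.41 and 5.76 FPKM at 24 h. Its libraries overlapped throughout, and the 95% interval of its log2 fold change was -0.30 to 0.07 at 12 h, and -0.15 to 0.22 at 24 h. Without the second library of the 12 h group the 12 h value was -0.21 with an adjusted p of 0.0363 in limma. SLC25A44 read 4.71, 5.02 and 4.31 FPKM with Gln added, 4.99, 5.32 and 4.82 FPKM at 12 h and 5.56, 4.96 and 5.10 FPKM at 24 h, with overlap at both times. Its log2 fold change was 0.11 (-0.05 to 0.27) and 0.15 (-0.01 to 0.31), and 3 of the 20 alternatives called it higher at 24 h.

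The pyrimidine nucleotide carriers moved in opposite directions. SLC25A33 (PNC1) and SLC25A36 (PNC2) both exchange pyrimidine nucleotides across the inner membrane and serve synthesis of mitochondrial DNA and RNA. SLC25A33 read 38.6, 38.1 and 38.4 FPKM with Gln added, 30.5, 29.7 and 30.9 FPKM at 12 h and 26.4, 25.7 and 27.2 FPKM at 24 h. SLC25A36 read 8.67, 8.19 and 8.70 FPKM with Gln added, 12.7, 13.2 and 16.6 FPKM at 12 h and 13.1, 17.6 and 17.7 FPKM at 24 h. All deprived libraries were below the controls for SLC25A33 and above them for SLC25A36. The log2 fold changes were -0.34 and -0.54 for SLC25A33 and 0.72 and 0.90 for SLC25A36, and all 4 calls were kept under all 20 alternatives. The high 12 h library and the low 24 h library of SLC25A36 were those that stood apart on the third component. Without both, its log2 fold change was 0.60 at 12 h, 1.04 at 24 h and 0.45 between the times. Over all libraries the last was 0.19 with no call. Leaving out these extremes raises the last value by itself, so it was not read as a test.

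Ratios of FPKM within a library do not depend on the scaling between libraries, and 9 pairs of paralogues or carriers of the same role were compared over 27 tests. The ratio of SLC25A33 to SLC25A36 was 4.51 ± 0.126 in the controls, then 2.17 ± 0.276 (12 h) and 1.67 ± 0.302 (24 h), each as mean ± SD with n = 3. Neither deprived group overlapped the controls (exact two-sided permutation p = 0.1, the smallest that 3 against 3 allows, adjusted p = 0.193). The ratio of SLC25A12 to SLC25A13 was 0.0164 ± 0.00248, 0.0185 ± 0.00205 and 0.0255 ± 0.00216, and only the 24 h group stood clear of the controls. SLC25A15 over SLC25A29 went from 7.06 ± 0.346 to 10.6 ± 0.873 and 10.4 ± 1.32, and neither deprived group overlapped the controls. The ratio of SLC25A39 to SLC25A40 overlapped throughout, at 20.2 ± 0.472, 20.9 ± 2.64 and 22.4 ± 3.77, and no pair could pass an adjusted p of 0.05 with groups of this size.

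**Figure D2:**
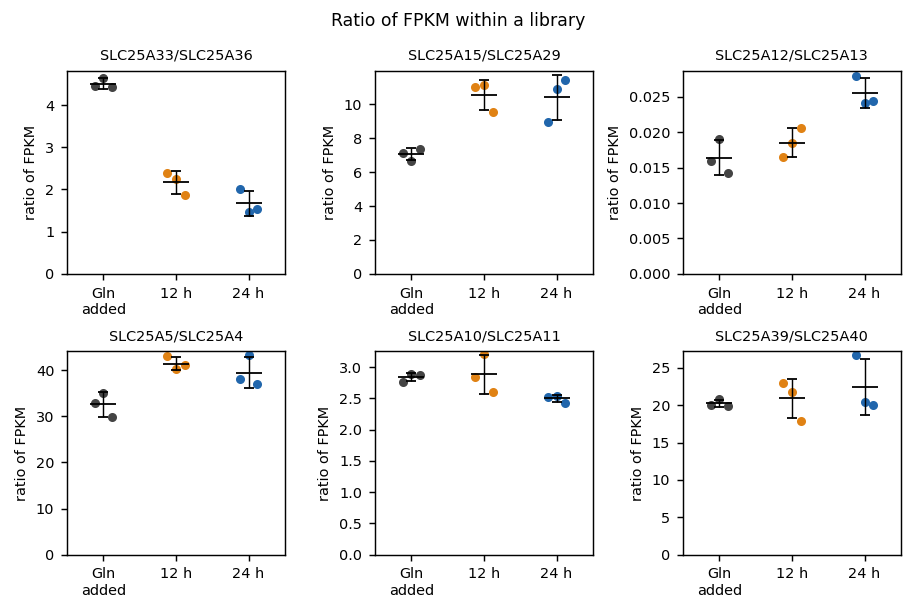
Ratio of FPKM of 6 pairs of SLC25A genes within each library, with the mean and SD of the 3 libraries of a group. SLC25A33 over SLC25A36 drops from 4.51 with Gln added to 1.67 at 24 h, while SLC25A39 over SLC25A40 overlaps between all groups.

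Promoters were searched for the letters of 4 motifs, on both strands of the 250 bases before each RefSeq start site (GRCh38.p14), for 38 of the 46 members. The E-box CACGTG was found for 7 members, or 18.4%, where 7.73% of 27305 genes with such a window hold it. That background includes genes that were not tested here, and the shares among tested genes, given below, are higher. Counting only members with a window, 5 of 12 that rose at 24 h, 1 of 14 that fell and 1 of 7 without a call held it. Over all genes tested that have a window these shares were 11.7%, 11.9% and 9.94%, and the split among so few members was not tested. The counts include SLC25A26, SLC25A51 and SLC25A46, whose E-boxes lie inside the gene's own GENCODE model. SLC25A26 and SLC25A51 are among the members that rose, and the 24 h call of SLC25A26 was lost under 12 of the 20 alternatives. The E-box is a palindrome, so both strands give the same match, and the motif was read only as letters. The upstream stretches of the 4 members whose E-box lies outside the gene's own GENCODE model are shown. They include both pyrimidine nucleotide carriers, which moved apart, and a pair of amino acid carriers that rose. Capitals mark the E-box, and bases inside the gene's own GENCODE model were left out.
SLC25A33 (chr1:9539215-9539464, plus strand, E-box 26 bases before the start site): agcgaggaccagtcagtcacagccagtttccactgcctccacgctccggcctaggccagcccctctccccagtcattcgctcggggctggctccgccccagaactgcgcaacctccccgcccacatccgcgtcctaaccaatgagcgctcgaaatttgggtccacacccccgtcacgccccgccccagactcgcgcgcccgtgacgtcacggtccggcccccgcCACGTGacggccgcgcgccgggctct
SLC25A36 (chr3:140941586-140941829, plus strand, E-box 143 bases before the start site): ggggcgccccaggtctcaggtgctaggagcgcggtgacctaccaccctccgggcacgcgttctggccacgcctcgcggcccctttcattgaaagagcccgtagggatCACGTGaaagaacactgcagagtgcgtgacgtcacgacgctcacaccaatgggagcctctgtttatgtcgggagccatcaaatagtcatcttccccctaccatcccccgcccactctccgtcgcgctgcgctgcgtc
SLC25A38 (chr3:39383120-39383369, plus strand, E-box 44 bases before the start site): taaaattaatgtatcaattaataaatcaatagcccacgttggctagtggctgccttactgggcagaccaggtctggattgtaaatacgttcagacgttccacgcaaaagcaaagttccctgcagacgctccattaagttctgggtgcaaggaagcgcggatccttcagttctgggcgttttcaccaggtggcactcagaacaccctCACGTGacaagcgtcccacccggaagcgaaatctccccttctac
SLC25A13 (chr7:96322148-96322348, minus strand, E-box 154 bases before the start site): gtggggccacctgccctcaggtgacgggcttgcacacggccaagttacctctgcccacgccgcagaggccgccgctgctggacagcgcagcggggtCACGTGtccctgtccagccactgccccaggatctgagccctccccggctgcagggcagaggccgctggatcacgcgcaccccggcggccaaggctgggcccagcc
Of the other motifs, TGATGNAA, the core of the C/EBP-ATF response element, was found for 1 member, SLC25A11, or 2.63% against 3.89% of all genes. TCACNCCAC, a sterol regulatory element, was found for 1 member, SLC25A40, or 2.63% against 1.09%. The palindromic NRF1 site was found for 0 members, where 1.28% of all genes hold it.

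The ADP/ATP carriers exchange matrix ATP for cytosolic ADP, and their 3 genes went 3 ways. SLC25A5 (ANT2) had the highest FPKM of the members. It read 283, 286 and 281 FPKM with Gln added, 306, 296 and 293 FPKM at 12 h and 299, 266 and 283 FPKM at 24 h. It had no call at either time, with 95% intervals of the log2 fold change from -0.02 to 0.17 and from -0.10 to 0.09, although 3 of the 20 alternatives called it higher at 12 h. SLC25A4 (ANT1), the form of heart and muscle, fell by 0.27 and 0.28 on the log2 scale from 8.14 to 9.44 FPKM with Gln added. SLC25A6 (ANT3) rose by 0.32 and 0.37 from 4.98 to 5.77 FPKM. Without replicate 3 with Gln added the SLC25A4 calls were lost (at 24 h -0.22, adjusted p = 0.0741 in limma), as was the 12 h call of SLC25A6. The annotation names 9 pseudogenes of SLC25A5 and 6 of SLC25A6, which lies in 2 annotated copies, so these levels are uncertain. The order by FPKM also rests on gene length, 1307 bases for SLC25A5 and 6343 for SLC25A3. With Gln added SLC25A3 held more fragments, 16838 to 17456 per library against 13057 to 13200 for SLC25A5.

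SLC25A3, the carrier that brings phosphate to ATP synthase, fell slightly at both times. It read 77.1, 76.0 and 75.8 FPKM with Gln added, 69.0, 68.2 and 67.0 FPKM at 12 h and 64.2, 56.9 and 61.9 FPKM at 24 h, without overlap, and its log2 fold changes were -0.16 and -0.32.

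The calcium-regulated ATP-Mg/phosphate carriers, which set the adenine nucleotide content of the matrix, also differed from each other. SLC25A25 read 3.78, 3.87 and 3.37 FPKM with Gln added, 4.74, 5.43 and 5.83 FPKM at 12 h and 5.59, 3.97 and 5.04 FPKM at 24 h. It rose by 0.52 and 0.38 on the log2 scale, but the 24 h call was lost without the 2 libraries that stood apart (0.28, adjusted p = 0.0501 in limma), and also without replicate 3 with Gln added and without replicate 1 or replicate 3 at 24 h, at 0.28 to 0.35. SLC25A23 read 4.67, 5.34 and 4.60 FPKM with Gln added, 3.61, 3.84 and 2.93 FPKM at 12 h and 3.51, 3.25 and 3.40 FPKM at 24 h. It was lower in every deprived library, by 0.49 and 0.51 on the log2 scale. SLC25A24 had no call, with log2 fold changes of -0.17 and -0.18; without the third 12 h library it was called lower at 12 h, at -0.25, and without the second 24 h library it was called lower at 24 h, at -0.27. Opposite-strand genes cover 15.5% of the exonic bases of SLC25A25, and the sources differ on whether the library kit kept the strand.

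**Figure D3:**
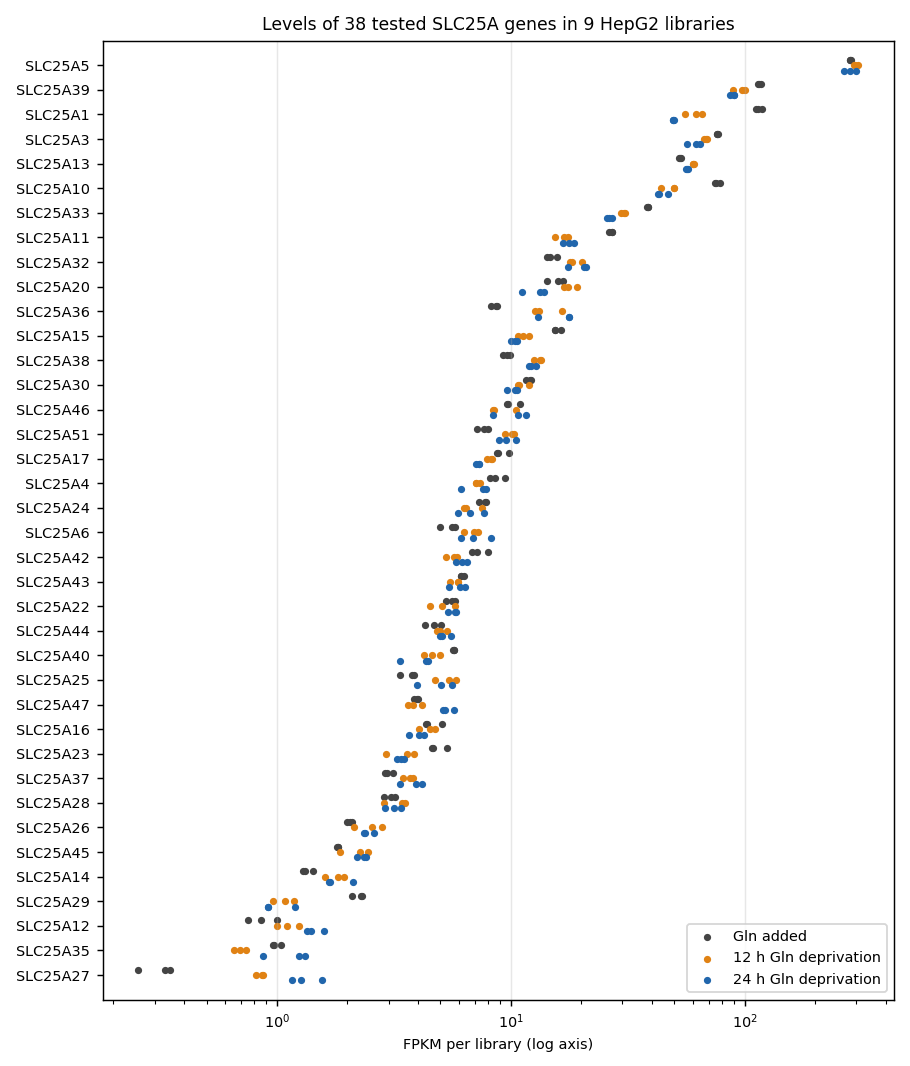
FPKM per library (log axis) of 38 of the 39 tested SLC25A genes, ordered by mean level, with Gln added in grey, 12 h in orange and 24 h in blue. SLC25A5 stands alone at 266 to 306 FPKM, and SLC25A27 is lowest, at 0.256 to 1.56 FPKM.

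The carriers of coenzymes and vitamins divided evenly, with 3 higher and 3 lower of the 7 tested at each time. All genes tested also divided about evenly, with 29.1% higher and 31% lower at 12 h and 33% and 31.7% at 24 h. The share called in this role was 85.7% at each time, beside 60.2% and 64.7% of all genes. The carriers of this role that rose were SLC25A51, which supplies the matrix with NAD, SLC25A32, a folate and FAD carrier, and SLC25A26, the S-adenosylmethionine carrier. SLC25A51 read 7.97, 7.65 and 7.18 FPKM with Gln added, 9.46, 10.3 and 10.1 FPKM at 12 h and 10.5, 8.94 and 9.50 FPKM at 24 h. SLC25A32 read 15.8, 14.7 and 14.3 FPKM with Gln added, 17.8, 18.2 and 20.2 FPKM at 12 h and 17.6, 21.0 and 20.5 FPKM at 24 h. Both were higher in every deprived library, by 0.38 and 0.34 for SLC25A51 and by 0.33 and 0.40 for SLC25A32 on the log2 scale. For SLC25A32, 69.7% of the exonic bases are shared with a same-strand gene. SLC25A26 ran at 2.00 to 2.82 FPKM and its calls were lost under 7 and 12 of the 20 alternatives.

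The falls in this role included SLC25A17 and SLC25A42. SLC25A17, which carries coenzyme A and adenine nucleotides in peroxisomes rather than mitochondria, read 8.73, 9.82 and 8.82 FPKM with Gln added, 8.28, 8.23 and 7.88 FPKM at 12 h and 7.29, 7.28 and 7.10 FPKM at 24 h, falling by 0.16 and 0.33 on the log2 scale. Both deprived groups lay below the controls, though the 12 h call was lost under 5 of the 20 alternatives. SLC25A42, a coenzyme A carrier, fell by 0.37 and 0.25 on the log2 scale, and SLC25A16, also linked to coenzyme A, had no call at -0.06 and -0.20, though 4 of the 20 alternatives called it lower at 24 h.

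Both carriers linked to glutathione fell, where 31% of all genes were lower at 12 h and 31.7% at 24 h. SLC25A39, which imports glutathione into mitochondria, was the second member by mean FPKM. It read 115, 118 and 114 FPKM with Gln added, 97.5, 101 and 89.4 FPKM at 12 h and 89.5, 89.9 and 86.8 FPKM at 24 h. Its log2 fold change was -0.27 (95% interval -0.37 to -0.17, limma adjusted p = 0.000318) and then -0.38 (-0.48 to -0.28, adjusted p = 2.11e-05). The paralogue SLC25A40 ran at 5.66 to 5.73 FPKM with Gln added and changed by -0.30 and -0.50, with the 12 h call lost under 5 alternatives.

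Of the mitoferrins, which import iron, SLC25A37 rose by 0.28 and 0.34 on the log2 scale from 2.91 to 3.12 FPKM, and SLC25A28 had no call at 0.10 and 0.05. SLC25A20, the carnitine/acylcarnitine carrier of fatty acid oxidation, read 15.9, 14.2 and 16.7 FPKM with Gln added, 17.5, 19.1 and 16.9 FPKM at 12 h and 13.3, 11.1 and 13.8 FPKM at 24 h. At 12 h its value was 0.20 with an adjusted p of 0.0709 in limma, and 4 of the 20 alternatives called it higher, and at 24 h it fell by 0.29 (adjusted p = 0.0122), a call lost without the third library with Gln added (adjusted p = 0.0524).

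A carrier that resembles uncoupling proteins had the largest rise among the SLC25A genes on the log2(FPKM + 0.1) scale. SLC25A27 (UCP4), best known from neurons, read 0.256, 0.349 and 0.333 FPKM with Gln added, 0.868, 0.812 and 0.864 FPKM at 12 h and 1.56, 1.26 and 1.16 FPKM at 24 h. The 3 groups did not overlap. The log2 fold change was 1.21 at 12 h (95% interval 0.87 to 1.54, limma adjusted p = 5.52e-05) and 1.79 at 24 h (1.45 to 2.13, adjusted p = 2.06e-06), from 27 to 165 fragments per library, so the level stayed low in all groups. With a pseudocount of 1 in place of 0.1 these values were 0.49 and 0.82, and both calls held, but SLC25A36 then rose more, by 0.66 and 0.84.

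SLC25A14 (UCP5) read 1.42, 1.32 and 1.30 FPKM with Gln added, 1.93, 1.82 and 1.61 FPKM at 12 h and 2.11, 1.66 and 1.69 FPKM at 24 h. It was above the controls in all 6 deprived libraries, by 0.38 and 0.40 on the log2 scale. SLC25A30, the kidney mitochondrial carrier, was lower at 24 h by 0.23 and had no call at 12 h at -0.10, where 2 alternatives called it lower.

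Family members that go by other symbols are outside the rule and were listed beside it. UCP2, the uncoupling protein of many tissues, which exports aspartate and other dicarboxylic acids in exchange for phosphate, read 25.7, 28.0 and 26.5 FPKM with Gln added, 12.9, 14.9 and 12.9 FPKM at 12 h and 11.4, 9.96 and 11.3 FPKM at 24 h. Its log2 fold change was -0.97 (SE 0.0707) and -1.29 (SE 0.0707), limma adjusted p = 9.60e-07 and 7.57e-08, larger at 24 h than that of any SLC25A gene that fell. MTCH1 and MTCH2, carrier homologues of the outer membrane, were lower at both times, by 0.13 and 0.18 and by 0.19 and 0.33 on the log2 scale. UCP1 and UCP3 stayed under 0.05 FPKM and were not tested.

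Of the 5 tested members whose substrate is not settled, SLC25A45 was higher at both times, SLC25A47 was higher at 24 h only and SLC25A35 was lower at 12 h only, while SLC25A43 and SLC25A46 had no call. That is 40% called at each time, beside 60.2% of all genes at 12 h and 64.7% at 24 h. Without both libraries that stood apart, SLC25A46 was called lower at 12 h (-0.26). The 12 h library left out held the highest 12 h value of SLC25A46. SLC25A45 rose by 0.25 and 0.34 on the log2 scale, and its 12 h call was lost under 11 alternatives. SLC25A47, a carrier found mainly in liver, read 4.0, 3.84 and 3.97 FPKM with Gln added, 3.80, 3.64 and 4.18 FPKM at 12 h and 5.71, 5.13 and 5.25 FPKM at 24 h. Its log2 fold change was -0.03 (95% interval -0.17 to 0.12) and then 0.43 (0.29 to 0.58, limma adjusted p = 0.000181). On chromosome 14 (GRCh38) SLC25A47 lies at 100323339 to 100330421 on the plus strand, 16791 bases from SLC25A29, at 100291116 to 100306547 on the minus strand, and that neighbour fell at both times.

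SLC25A35 read 0.976, 1.04 and 0.963 FPKM with Gln added, 0.694, 0.658 and 0.739 FPKM at 12 h and 0.869, 1.25 and 1.31 FPKM at 24 h. The 12 h libraries were the lowest and the 24 h libraries overlapped the controls, with log2 fold changes of -0.46 (adjusted p = 0.0215 in limma) and 0.17 (95% interval -0.16 to 0.50). Its levels rest on 105 to 234 fragments per library, opposite-strand exons cover 28.7% of its exonic bases, and without the first 24 h library it was called higher at 24 h.

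Between 12 h and 24 h few members differed. Against the 12 h group, 3 were higher and 6 were lower at 24 h and 30 had no call, that is 9 of 39 where 20.1% of all genes were called (9.57% higher and 10.5% lower). Groups did not overlap for 13 members, where 34.4% of all genes did not. Called differences over 0.5 on the log2 scale numbered 2 (3.18% of all genes), and 0 were over 1 (0.303%). Without the libraries that stood apart the numbers were 5 higher and 8 lower. The falls that went further at 24 h included SLC25A1 (-0.30, limma adjusted p = 0.00305), SLC25A33 (-0.20, adjusted p = 0.00291), SLC25A17 (-0.17, adjusted p = 0.0498) and SLC25A3 (-0.16, adjusted p = 0.0254). SLC25A20, which at 12 h had lain slightly above the controls without a call, was lower at 24 h than at 12 h by 0.49 (adjusted p = 0.00311 in limma).

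SLC25A35 (0.62, limma adjusted p = 0.0148), SLC25A27 (0.58, adjusted p = 0.0219) and SLC25A47 (0.46, adjusted p = 0.000894) were the members that were higher at 24 h than at 12 h. Of the 9 calls, 5 were kept under all 20 alternatives. SLC25A17 lost its call under 15 of them and SLC25A3 under 7. SLC25A27 lost its call under 5 and SLC25A35 under 3 of the 19 in which they were tested. The call of SLC25A27 was lost without the first or the second 12 h library, without the first 24 h library, and without the pair that stood apart (0.48, adjusted p = 0.0928 in limma).

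**Figure D4:**
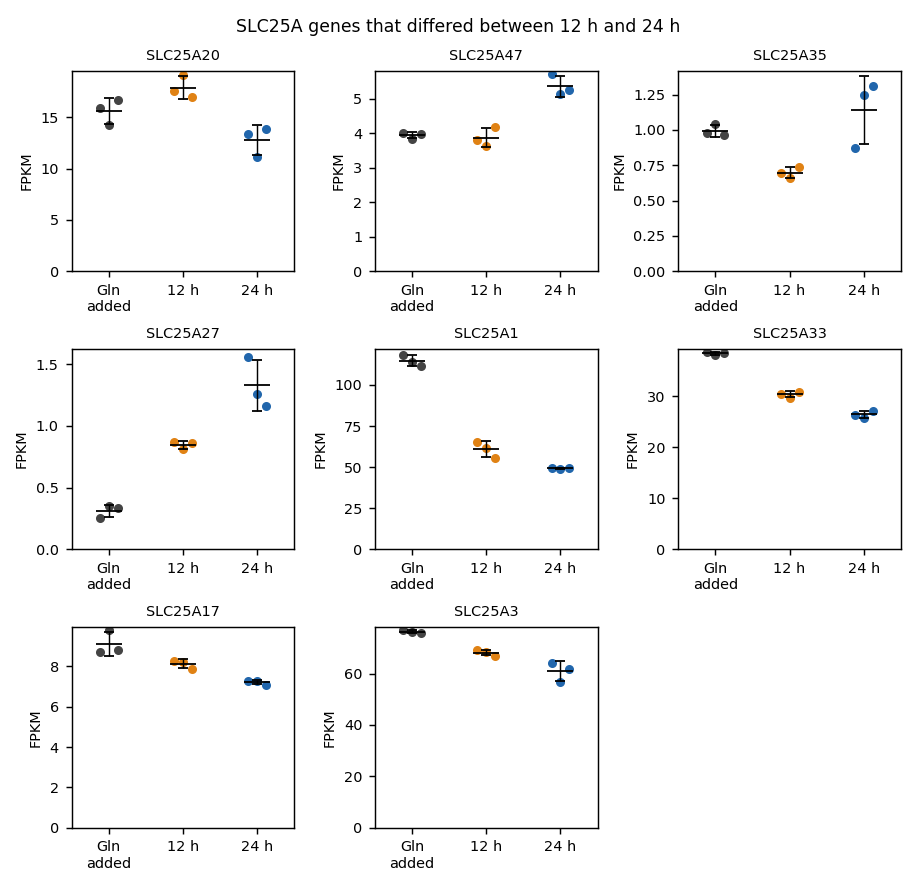
FPKM in each library of 8 of the 9 SLC25A genes that differed between 12 h and 24 h in limma; points are libraries, and the bar and whiskers are the mean and SD of 3. SLC25A20 lies between 16.9 and 19.1 FPKM at 12 h and between 11.1 and 13.8 FPKM at 24 h, and SLC25A47 between 3.64 and 4.18 FPKM and between 5.13 and 5.71 FPKM.

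Summed over the 46 genes, carrier FPKM was 979 ± 8.70 in the controls, 880 ± 15.9 after 12 h and 825 ± 22.6 after 24 h, each as mean ± SD with n = 3. The groups did not overlap (exact two-sided permutation p = 0.1 for each comparison, the smallest possible), and the ratios to the controls were 0.899 and 0.843. A few members carry this sum, and their shares depend on the gene lengths used. SLC25A5, SLC25A39, SLC25A1, SLC25A3 and SLC25A13 made up 64.6% to 67.0% of it in every library. The share of SLC25A5 went from 28.9% to 33.9% and 34.2%, and that of SLC25A1 from 11.7% to 6.92% and 5.99%.

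The genes of the route by which carriers reach the inner membrane moved both ways. Carrier precursors are bound by the TOMM70 receptor, pass the TOM pore, are guided by small TIM chaperones and are inserted by the TIM22 complex. Of the 16 genes listed, 3 were higher and 6 lower at 12 h, and 3 were higher and 8 lower at 24 h. That is 56.2% and 68.8% called, near the 60.2% and 64.7% of all genes. Changes over 0.5 on the log2 scale were those of TOMM6 (168 ± 6.19, 95.1 ± 5.93 and 79.6 ± 5.33 FPKM; -0.82 and -1.08) and TOMM5 (-0.53 and -0.80), small subunits of the pore, of the chaperone TIMM9 at 12 h (20.4 ± 0.560 and 33.7 ± 1.01 FPKM; 0.72) and of TIMM8A at 24 h (-0.53). TIMM9 had come down to 28.7 ± 2.06 FPKM at 24 h.

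Among other transporters of the mitochondrial membranes more were called lower than higher. Of 19 listed, 2 were higher and 10 lower at 12 h, where 29.1% of all genes were higher and 31% lower, and 3 were higher and 13 lower at 24 h, where 33% of all genes were higher and 31.7% lower. The share called in either direction, 63.2% at 12 h and 84.2% at 24 h, was near that of all genes (60.2%) at 12 h and above it (64.7%) at 24 h. The sideroflexins, relatives of the serine transporter SFXN1, included SFXN3 (24.9 ± 0.306, 12.7 ± 0.355 and 13.7 ± 0.526 FPKM) and SFXN2, which fell by 0.97 and 0.85 and by 0.90 and 0.79 on the log2 scale. The pyruvate carrier subunit MPC1 fell by 0.76 and 0.79, and MPC2 by 0.36 and 0.61. The outer membrane channel VDAC3 fell by 0.74 and 0.91. ABCB10, an inner membrane transporter needed in haem synthesis, fell by 0.53 at 12 h, and SFXN4 rose by 0.54 at 24 h.

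Of the 13 protein genes of the mitochondrial genome, 3 were higher and 1 lower at 12 h (30.8% called, beside 60.2% of all genes), and 2 were higher and 1 lower at 24 h (23.1%, beside 64.7%). Between the times limma called 0 of them at the adjusted threshold and 2 at an unadjusted p under 0.05, while 1 was called with median-ratio scaling and 1 by voom.

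Of the 7 members that were not tested, none reached more than 38 fragments in a library. They are SLC25A2, SLC25A18, SLC25A21, SLC25A34, SLC25A41, SLC25A52 and SLC25A53, and each ran under 0.5 FPKM in every library. SLC25A18, the second glutamate carrier, ran at 0.0485 to 0.202 FPKM, so SLC25A22 was the only glutamate carrier of this type at a level that could be tested.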

How the data were processed

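RNA-seq libraries from total RNA of HepG2 cells were sequenced, and the authors deposited 1 table of FPKM per gene in 9 libraries, fragments scaled to gene length and library size, with replicates kept apart. The submitters' processing notes name HTSeq, R 3.2.0 and GRCh38, and the study's methods name STAR and DESeq2. Versions of the aligner and the annotation are not given in the sources used here. FPKM carry the authors' gene lengths and totals, so a change in a few abundant genes shifts all values. The labels and the methods name different library kits, of which only the methods' kit is given as strand-specific.

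Because the table holds FPKM and not counts, limma 3.58.1 (R 4.3.3) replaced the count test of the methods. It was fitted to log2(FPKM + 0.1) over all 9 libraries in 3 groups, with a trended prior, for the 11880 genes that averaged 0.5 FPKM or more, and a call was an adjusted p under 0.05 (Benjamini-Hochberg). A fold change on this scale understates that of low genes. Whole fragments were recovered from FPKM for 100% of 22587 genes within 0.02 fragments and gave library totals of 29621270 to 36261546. They served as depth and for an alternative by voom. Summed FPKM and ratios within a library were compared by exact permutation tests. Scripts were tested on simulated data. Positions and overlaps came from GENCODE (GRCh38), promoters from RefSeq (GRCh38.p14).

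All members were counted. Values in every library are given for the tested amino acid carriers, the 6 called members with the largest rise and the 6 with the largest fall in each contrast, and the 5 highest by mean FPKM; other members are given by range and count. The values of 1 tested member are not reported here, though it is in every count. The members and gene lists were chosen with earlier results of these data known. The 20 alternatives covered the pseudocount, the filter, the scaling, the fit and leaving out libraries. Libraries with the same replicate number were not treated as pairs in the main fit.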

Additional observations from a re-analysis of the deposited data

Results flagged for a closer look

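Each of these SLC25A genes differed between the 12 h and 24 h groups, by the limma test of the difference itself on log2(FPKM + 0.1). The log2 difference, 24 h minus 12 h, was -0.30 for SLC25A1, -0.17 for SLC25A17, -0.49 for SLC25A20, -0.16 for SLC25A3 and -0.20 for SLC25A33. It was 0.58 for SLC25A27, 0.62 for SLC25A35 and 0.46 for SLC25A47. In SLC25A20 the 12 h and 24 h values lay on opposite sides of the controls, at 0.20 without a call and at -0.29. In SLC25A35 the log2 fold changes against the controls were -0.46 and 0.17. The second had no call, and the 24 h libraries overlapped the controls. The calls between the times of SLC25A17, SLC25A3, SLC25A27 and SLC25A35 were lost under some of the alternatives. No cause was tested for any of these differences.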

How the results depend on the processing

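Of the SLC25A calls, 19 of 28 at 12 h, 26 of 30 at 24 h and 5 of 9 between the times were kept under every alternative in which the gene was tested, 19 for SLC25A27 and SLC25A35 and 20 for the others. Leaving out both libraries that stood apart was chosen after seeing the data. No called gene changed direction; the log2 fold changes that did belonged to genes without a call. Rescaling FPKM to the same total gave SLC25A47 0.00648 at 12 h and SLC25A5 0.0417 at 24 h; voom gave SLC25A5 0.000902 at 24 h, and median-ratio scaling gave SLC25A46 -0.00634 at 24 h. Leaving out 1 library, or both that stood apart, they ran from -0.104 to 0.0142 for SLC25A16 and from -0.0807 to 0.0160 for SLC25A47 at 12 h. At 24 h they ran from -0.0847 to 0.146 for SLC25A46, -0.0472 to 0.0374 for SLC25A5, -0.00193 to 0.0677 for SLC25A22, -0.00800 to 0.102 for SLC25A28 and -0.105 to 0.00225 for SLC25A43. Between the times they ran from -0.159 to 0.0548 for SLC25A23, -0.192 to 0.00746 for SLC25A28, -0.0812 to 0.104 for SLC25A4, -0.0637 to 0.185 for SLC25A6, -0.151 to 0.0810 for SLC25A14, -0.0982 to 0.162 for SLC25A24, -0.131 to 0.0634 for SLC25A26, -0.0126 to 0.0968 for SLC25A43, -0.0423 to 0.171 for SLC25A45, -0.0350 to 0.0820 for SLC25A44, -0.0114 to 0.141 for SLC25A37 and -0.109 to 0.00450 for SLC25A51. There median-ratio scaling also gave SLC25A14 -0.0110, and rescaling to the same total gave SLC25A24 0.00844 and SLC25A4 0.00665. Log2 ratios changed direction for SLC25A39/SLC25A40 (-0.0327 to 0.146) and SLC25A10/SLC25A11 (-0.0628 to 0.0903) at 12 h and, between the times, for SLC25A15/SLC25A29 (-0.0955 to 0.0826), SLC25A5/SLC25A6 (-0.267 to 0.0284), SLC25A23/SLC25A24 (-0.212 to 0.105) and SLC25A39/SLC25A40 (-0.0390 to 0.168).

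Called SLC25A genes between the times numbered 5 to 13 when libraries were left out, the higher ones 1 to 5 (5 without both that stood apart), and 1 was higher with a minimum of 1 FPKM, which leaves SLC25A27 and SLC25A35 untested. The summed FPKM ratio to the controls was 0.920 and 0.871 when rescaled to the same total. Called mitochondrially encoded genes numbered 1 at 12 h and 1 at 24 h without a filter, and 2 to 5 and 3 to 5 when libraries were left out. Between the times, calls among these were 1 with median-ratio scaling, 1 by voom and 0 to 1 when libraries were left out. Calls in the import route between the times were 5 with median-ratio scaling, 5 with the block and 3 to 6 without libraries; family genes under other symbols had 2, 2, 2 (voom) and 1 to 2; other transporters had 2 to 8. The causes of these shifts were not tested.

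Replicate numbers showed no clear pairing of the libraries. Same-numbered deviations correlated at -0.136 to 0.283 and differently numbered ones at -0.467 to 0.296. With 3 libraries per group these values cannot show whether same-numbered libraries shared a culture. With the replicate number as a block, 27 SLC25A genes were called at 12 h, 29 at 24 h and 9 between the times. Depth limits SLC25A27, SLC25A35, SLC25A12, SLC25A29, SLC25A14, SLC25A45 and SLC25A47 most, which rest on 27 to 392 fragments per library. A pseudocount of 1 shrank the changes of the lowest of them, as for SLC25A12 at 24 h (0.39).

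Leaving out 1 library ended these other calls, with log2 fold changes in the range given. At 12 h they were SLC25A4 (-0.26 to -0.21; Gln added 3, 12 h 1 or 3), SLC25A6 (0.26 to 0.28; Gln added 3, 12 h 3), SLC25A17 (-0.14 to -0.11; Gln added 2, 12 h 3), SLC25A26 (0.18 to 0.28; any Gln added, 12 h 1 or 3), SLC25A35 (-0.43 to -0.42; Gln added 2, 12 h 2), SLC25A40 (-0.30 to -0.25; Gln added 1 or 3, 12 h 1 or 2) and SLC25A45 (0.17 to 0.25; all but 12 h 3). At 24 h it was SLC25A26 (0.20 to 0.27; all but 12 h 2 and 12 h 3). Between the times they were SLC25A17 (-0.19 to -0.15; all but Gln added 2), SLC25A3 (-0.17 to -0.11; 12 h 1 or 2, 24 h 2 or 3), SLC25A27 (0.47 to 0.60; 12 h 1 or 2, 24 h 1) and SLC25A35 (0.52 to 0.59; 12 h 2, 24 h 2 or 3).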

Other observations

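Among the 39 tested members, 4 (SLC25A24, SLC25A32, SLC25A36 and SLC25A46) were higher in replicate 3 at 12 h and replicates 2 and 3 at 24 h than in the other 3 deprived libraries, and 5 (SLC25A5, SLC25A10, SLC25A14, SLC25A23 and SLC25A28) were lower; over all genes tested these shares were 12.5% and 7.03%. The split was found in the data and does not follow the time of deprivation. SLC25A46, which had no call in any contrast with all 9 libraries, read 8.39, 8.43 and 10.6 FPKM at 12 h and 8.39, 11.6 and 10.7 FPKM at 24 h. Without both libraries that stood apart it was called lower at 12 h (-0.26, limma adjusted p = 0.00784) and higher at 24 h than at 12 h (0.40, adjusted p = 0.00438). What set these libraries apart was not tested.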
